A study of Rattus norvegicus with 4 samples.

Results

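The 7 genes described here encode receptors of the antibody Fc region and their signalling adaptors, and were measured in NR8383, a macrophage line derived from rat lung lavage. They are Fcgr1a, Fcgr2a, Fcgr2b, Fcgr3a, Fcer1g, Tyrobp and Fcgrt, taken as every non-control probe that carries a member's name or an older rat name. The 7 genes had 8 probes, of 18830 named genes and 45598 probes on the array. The 4 samples form 1 group, the submerged control: cells of an established line from a normal rat, after 20 passages, in medium with 15% serum, 2 mM glutamine, penicillin, streptomycin and amphotericin B, and with no further treatment named. The sources used here give both 4 h of submerged incubation and 48 h after seeding, and these were not reconciled. The series calls the samples biological replicates without naming separate cultures, so p-values measure the spread between these samples only. With 1 group there is no comparison between conditions, and the results are detection, level and spread between replicates.

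Fc receptors let a macrophage bind and take up particles coated with antibody. The activating receptors Fcgr1a, Fcgr2a and Fcgr3a bind IgG outside the cell and signal through Fcer1g, the common gamma chain, whose tail carries an immunoreceptor tyrosine-based activation motif (ITAM). Tyrobp, also called DAP12, is an ITAM adaptor of the same design that serves other receptors such as Trem2. Src-family kinases phosphorylate the motif and Syk docks on it. Fcgr2b carries an inhibitory motif instead and recruits the phosphatase Inpp5d. Fcgrt is the heavy chain of the neonatal Fc receptor, which pairs with B2m inside the cell and returns IgG and albumin to the surface.

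All 7 members were detected on all 4 arrays, whereas 54.9% of named genes were (10342 of 18830). A probe counted as detected when over 0.5 of its unflagged spots lay well above background in the scanner software's test, and a gene counted through any probe that met this on every array. Levels are log2 processed signals relative to the 75th percentile of the array, so a level of 0 is the brightness of that percentile. Brightness depends on the probe, so levels of different probes are not ranked. All 4 arrays lay on 1 slide, no spot was saturated, and the 75th percentile lay between 958 and 1489 fluorescence units. Precision is limited by the small number of arrays.

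**Figure D1:**
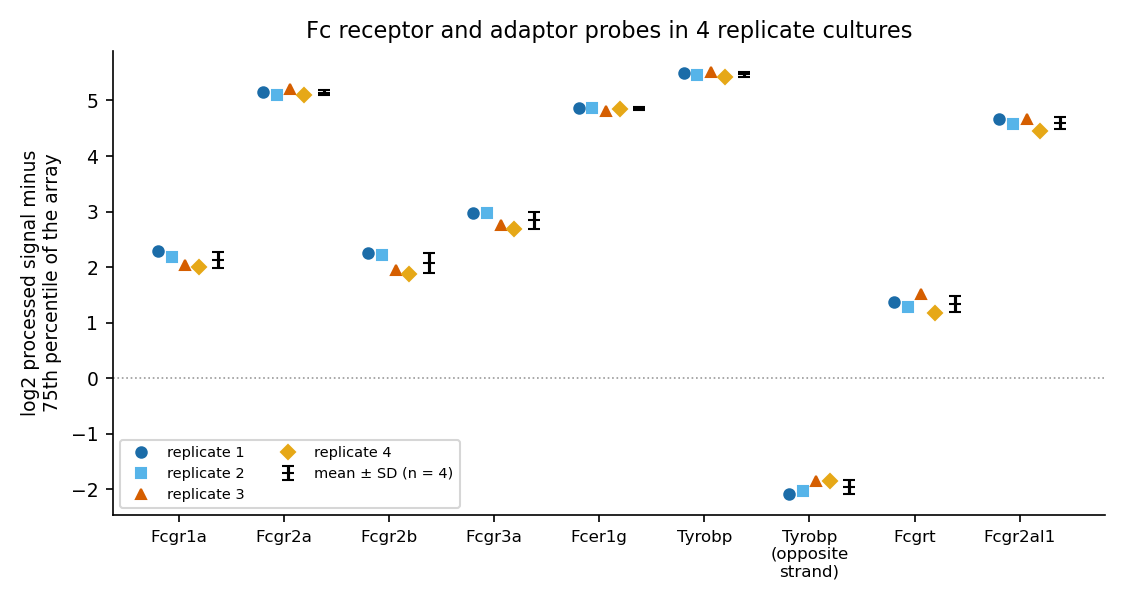
Level of each member's probe, and of the Fcgr2a paralogue Fcgr2al1, on the 4 arrays (log2 processed signal relative to the 75th percentile of its array, dotted line at 0), with the mean ± SD (n = 4) beside the points. Tyrobp has a second probe on the opposite strand, at -1.95 ± 0.12; heights compare replicates within a probe, not genes.

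The activating receptor Fcgr1a, the high-affinity receptor for IgG, lay at 2.30, 2.18, 2.03 and 2.00 on replicates 1 to 4. Its processed signals were 6476, 6764, 4823 and 3843 fluorescence units, at least 127 times the local background on each array. Replicate 1 was the highest and replicate 4 the lowest, with a 1.23-fold range around a mean of 2.13 ± 0.14 (SD, n = 4). Its probe lies at chr2:191095045-191095104 on the minus strand of rn4.

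Fcgr3a, another activating receptor, lay at 2.97, 2.98, 2.75 and 2.68. Replicates 1 and 2 almost coincided and replicate 4 was the lowest, giving 2.85 ± 0.15 and a 1.23-fold range. RefSeq lists CD16-2 and Fcgr4 as its older names. Its probe lies at chr13:86877181-86877240 on the plus strand of rn4.

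Fcgr2a, a low-affinity activating receptor for IgG, varied less than these: 5.16, 5.10, 5.20 and 5.10, or 5.14 ± 0.05 with a 1.07-fold range. Replicate 3 was the highest, and the lowest array lay 0.10 below it. RefSeq gives Fcgr3 and also Fcgr3a as older names of the rat gene now called Fcgr2a. A rat value printed as Fcgr3 or Fcgr3a in older work can therefore refer to Fcgr2a. Here both genes were named by the RefSeq mRNA attached to the probe.

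The Fcgr2a probe cannot be separated by annotation from its paralogue Fcgr2al1, since the files attach the RefSeq mRNAs of both genes to each of their probes. The first 30 of the 60 bases of both probes are shown because their letters decide what each reads; the minus-strand positions in rn4 are chr13:86898918-86898977 for Fcgr2a and chr13:86921132-86921191 for Fcgr2al1.
Fcgr2a: atctacagccttcctttgaaagcaacttac
Fcgr2al1: ggggaggactggaggaaatccctgtcagtc
Over all pairs of the 9 probes (36 pairs) the longest run of shared letters was 9 bases on either strand, and no other probe of the array shared 20 bases with any of them. The letters of the Fcgr2a and Fcgr2al1 probes are thus unlike, although both are annotated to both mRNAs, and the share of each gene in their signals was not tested. Fcgr2al1, which is no member, lay at 4.67, 4.57, 4.67 and 4.45 (4.59 ± 0.11), with replicate 4 lowest. Where in their transcripts the probes lie (coding or untranslated exon) was not analysed here.

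Fcgr2b, the inhibitory receptor, had the widest range of the members. It lay at 2.25, 2.22, 1.96 and 1.87, a mean of 2.07 ± 0.19 with a 1.29-fold range. Replicates 1 and 2 were higher than replicates 3 and 4 on this probe. Its processed signals were 6272, 6933, 4593 and 3526 fluorescence units. Its probe, at chr13:86809091-86809150 on the minus strand of rn4, was printed on 10 spots. Spots of an array had an SD of 0.11 on average, and the SD between arrays was 5.38 times the standard error of an array's mean over spots. The same ratio was 6.01 for Fcgr2al1, 4.01 for Fcgr2a and 2.60 for Tyrobp, the other probes with 10 spots. Spots share the labelling and hybridisation of their array, so this standard error leaves those sources of error out.

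Fcer1g, the gamma chain, was the steadiest member: 4.87, 4.87, 4.81 and 4.86, or 4.85 ± 0.03 with a 1.04-fold range. Its processed signals, 38471, 43529, 33086 and 27734 fluorescence units, fell and rose with the 75th percentile of the arrays. The lowest level, on replicate 3, was 0.06 below the highest. Its probe had 2 spots an array, and the SD between arrays was 1.33 times the standard error of the spots. The probe lies at chr13:87119567-87119626 on the minus strand of rn4, 198 kb above that of Fcgr2al1. The probes of Fcgr2b, Fcgr3a, Fcgr2a and Fcgr2al1 together span 112 kb of the same chromosome.

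Tyrobp was likewise steady on the probe that carries its RefSeq mRNA: 5.49, 5.45, 5.52 and 5.42, or 5.47 ± 0.04 with a 1.07-fold range. Replicate 3 was the highest and replicate 4 the lowest. Its processed signals were 59191, 65272, 53962 and 41094 fluorescence units. That probe was printed on 10 spots, of which 8 were unflagged on every array.

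A second probe named Tyrobp, designed from an expressed sequence tag, lies 8 bases away on the opposite strand. The first 30 of 60 bases of both are shown, the first from chr1:85369110-85369169 on the plus strand and the second from chr1:85369042-85369101 on the minus strand of rn4.
Tyrobp, RefSeq mRNA: caacaaaccctccctgggatcaggactccc
Tyrobp, expressed sequence tag: tctggaatgagtggatccgggcatcaggtt
The opposite-strand probe lay at -2.09, -2.02, -1.85 and -1.85 (-1.95 ± 0.12), lowest on replicate 1 and highest on replicate 4. It was detected on all 4 arrays, at 9.91 to 11.2 times the local background. Its order over the replicates differed from that of the RefSeq probe, which was lowest on replicate 4. The next probe above on the minus strand, 181 bases from the RefSeq probe, belongs to Hcst, which encodes the adaptor DAP10. What the opposite-strand probe reads was not tested, and the level of Tyrobp is taken from the RefSeq probe.

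Fcgrt, the intracellular IgG and albumin receptor, lay at 1.37, 1.28, 1.51 and 1.17. Replicate 3 was the highest and replicate 4 the lowest, a 1.27-fold range around 1.33 ± 0.15. Its processed signals were 3409, 3607, 3369 and 2157 fluorescence units, at least 66.3 times the local background. The probe lies at chr1:95568453-95568512 on the minus strand of rn4.

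The spread of the members was set against that of all 19400 probes detected on every array, with limma's F test of each probe's variance against a prior SD that follows mean signal. No member passed at an adjusted p of 0.05 (Benjamini-Hochberg over all these probes), beside 0.145% of detected genes (15 of 10342) and 0.17% of probes (33 of 19400). Before adjustment none of the members lay under 0.05, beside 6.5% of probes. The lowest p belonged to Fcgr2b, at 0.0695 (adjusted p = 0.847 in limma's test), with an SD 1.97 times its prior of 0.094. Fcgr3a had an SD 1.61 times its prior (adjusted p = 0.983 in limma's test), Fcgrt 1.52 times and Fcgr1a 1.46 times. The SDs of Fcgr2a, Tyrobp and Fcer1g were 0.49, 0.41 and 0.28 times theirs. A p above the threshold does not show that the replicates were equal.

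**Figure D2:**
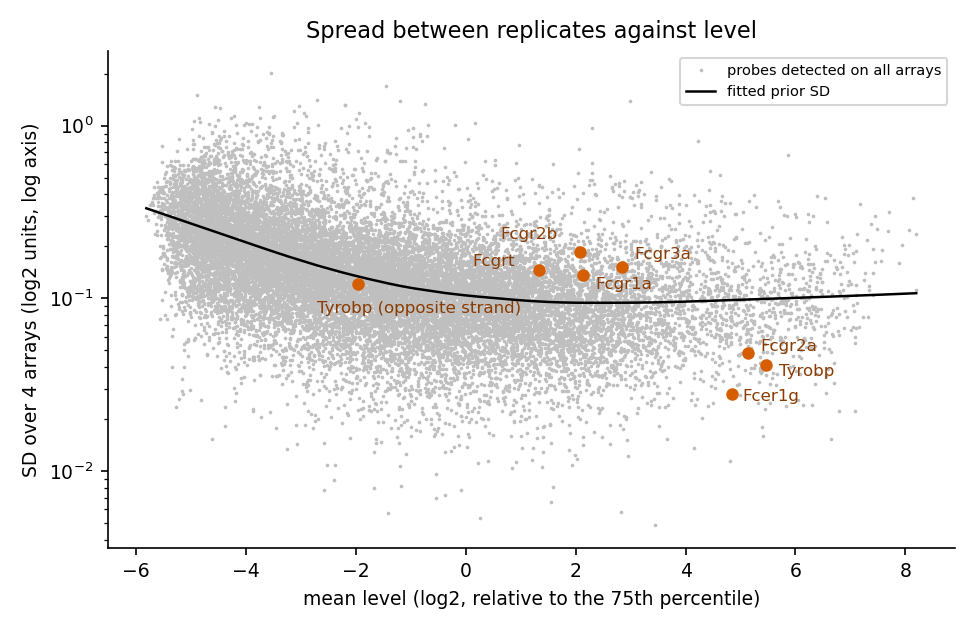
SD over the 4 arrays (log axis) against mean level for every probe detected on all arrays (grey), with the fitted prior SD (line) and the members' probes (orange). Fcgr2b, Fcgr3a, Fcgr1a and Fcgrt lie above the line, while Fcgr2a, Tyrobp and Fcer1g lie below it, between 0.03 and 0.05.

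The median SD of the 7 members was 0.137, against 0.112 for all detected genes. Of the 10342 detected genes, 98.0% had a larger SD than Fcer1g, 93.9% a larger SD than Tyrobp and 90.5% a larger SD than Fcgr2a. For the receptors Fcgr1a, Fcgr3a and Fcgr2b these shares were 37.1%, 31.3% and 21.3%, and for Fcgrt 33.4%. The probes of Fcgr1a, Fcgr3a and Fcgrt had 1 spot an array. Those of Fcgr2b, Fcgr2a and Tyrobp had 10, and that of Fcer1g had 2. Levels averaged over more spots carry less spot noise, and the part of spot number in these SDs was not tested. Of the 7 members, 5 were lowest on replicate 4, whereas 28.3% of all detected genes were lowest there. Replicate 4 also had the lowest 75th percentile and the fewest detected probes, 20170 against 22415 on replicate 1. The part of these array differences in the members' order was not tested.

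Differences between members on the same array do not depend on an offset common to all genes of that array, as 75th percentile and spike-in scaling use, although quantile normalization can change them. Relative to Fcer1g, Fcgr2b stood 0.16, 0.12, -0.08 and -0.20 from its mean difference on replicates 1 to 4. Fcgr3a followed a like course at 0.11, 0.11, -0.05 and -0.17. The SD of the difference to Fcer1g was 0.06 for Tyrobp, 0.07 for Fcgr2a, 0.12 for Fcgr1a, 0.14 for Fcgr3a, and 0.17 for both Fcgr2b and Fcgrt. The median over all other detected genes was 0.114, and over the other 6 members 0.129.

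Among the 21 pairs of members, the SD of the within-array difference ran from 0.017 for Fcgr2a with Tyrobp to 0.22 for Fcgr2b with Fcgrt, with a median of 0.137. Fcgr2b and Fcgr3a also kept a nearly fixed difference, with an SD of 0.037. Fcgr1a differed from Fcgr3a with an SD of 0.057 and from Fcgr2b with an SD of 0.068. These are descriptions of 4 arrays and carry no test.

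**Figure D3:**
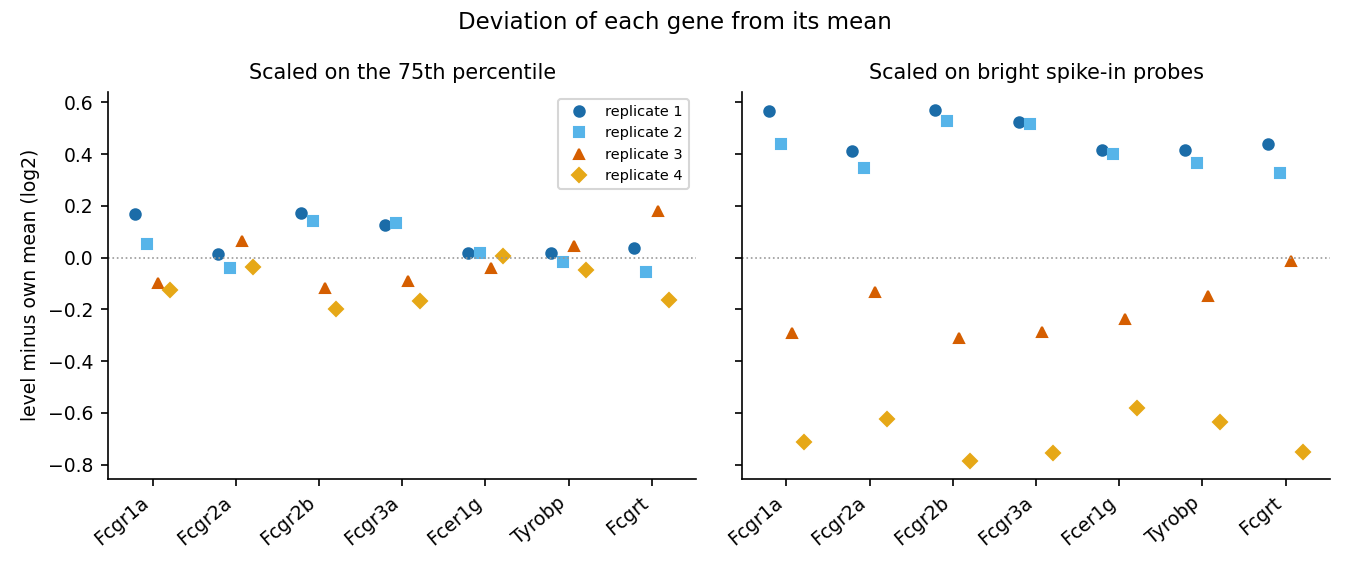
Deviation of each member from its own mean on each array (log2), scaled on the 75th percentile (left) or on 7 bright spike-in probes (right). The replicates lie within 0.37 of each other on the left, and on the right, where each array is moved by an offset common to all genes, the ranges are 0.999 to 1.36.

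The choice of scale decides how far the replicates appear to differ. The 7 bright spike-in probes, which read control RNA and not rat genes, lay 2.82, 2.84, 3.42 and 3.81 above the 75th percentile on replicates 1 to 4. Scaled on these probes, the members' ranges were 0.999 to 1.36 log2 units, against 0.06 to 0.37 on the 75th percentile. Fcgr2b then had a range of 1.36 and Fcer1g of 0.999. This scaling moves every gene of an array by the same amount, so the wider ranges are not particular to the members. Replicate 4 was the lowest for every member on this scale, and for 5 of the 7 on the 75th percentile. Which scale follows the RNA of the cells was not tested. The variance test called no gene of the array under spike-in scaling. Quantile normalization gave Fcer1g a range of 0.13 and Tyrobp 0.16, against 0.06 and 0.09. Single arrays also set some ranges: without replicate 3 they were 0.01 for Fcer1g, 0.05 for Fcgr2a (0.10 with it) and 0.20 for Fcgrt (0.34 with it). Without replicate 1 the range of Fcgr1a was 0.18 in place of 0.29, and without replicate 4 that of Tyrobp was 0.06.

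The genes around the members are given next by their roles, as lists of 83 genes of which 81 had a probe. Of these, 58 (71.6%) were detected on all arrays, beside 54.9% of all named genes. None of the 58 passed limma's variance test. Under 0.05 before adjustment were 3 of the 58, by their brightest detected probes, a share near the 6.5% of all probes: Pigr, Fgr and Rac2. Rac2, a small GTPase of phagocytosis, was named after its values were seen, and lay at 1.53, 1.98, 1.23 and 2.04 (adjusted p = 0.179 in limma's test).

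Of the other receptors that bind antibody, 4 of 10 were detected (40%), a smaller share than the 54.9% of all named genes. Pigr, which carries polymeric immunoglobulin across epithelia, lay at 3.66, 3.24, 2.60 and 2.90, highest on replicate 1 and lowest on replicate 3 (3.10 ± 0.45; adjusted p = 0.123 in limma's test). That level rests on 1 of its 2 probes. Fcrla lay at 1.33 ± 0.09, Fcrlb at -2.81 ± 0.15 and the cytosolic antibody receptor Trim21 at -2.58 ± 0.20. The level of Fcrlb also rests on 1 of its 2 probes. The IgE receptor chains Fcer1a and Ms4a2, which share Fcer1g with the IgG receptors, and the low-affinity IgE receptor Fcer2 were detected on no array. Fcamr was detected on 1 array.

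Among receptors that signal through Fcer1g or Tyrobp, 6 of 11 were detected (54.5%), near the 54.9% of all named genes. Trem2, a lipid receptor that needs Tyrobp, lay at 5.78, 5.84, 5.73 and 5.71, or 5.76 ± 0.06, with all replicates close together. Trem1 lay at 0.72 ± 0.07 and Trem3 at 1.52 ± 0.11. Clec4d, a C-type lectin that uses Fcer1g, was detected on no array.

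Of the other signalling chains, 3 of 7 were detected (42.9%), a smaller share than the 54.9% of all named genes. Hcst, which pairs with some of the receptors that use Tyrobp, lay at 2.08, 1.95, 2.06 and 1.76, lowest on replicate 4 (1.96 ± 0.14). The lymphocyte chains Cd3d and Cd79a lay at -3.42 ± 0.24 and -5.46 ± 0.15. Cd79b, Cd247, Cd3e and Cd3g, the other chains of the B and T cell receptors listed, were detected on no array.

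The listed kinases of the Src, Syk and Tec families were detected in 8 of 10 cases (80%), beside 54.9% of all named genes. Syk lay at 0.79, 0.60, 0.63 and 0.48, or 0.63 ± 0.13, and Lyn at 2.43 ± 0.08. Fgr, a Src-family kinase as Lyn is, lay at -0.69, -0.23, -0.78 and -0.01, higher on replicates 2 and 4 than on replicates 1 and 3 (-0.43 ± 0.37; adjusted p = 0.294 in limma's test). Src, on any of 3 probes, and Zap70, the lymphocyte relative of Syk, were detected on no array.

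The effectors after Syk were detected in 18 of 22 cases (81.8%), beside 54.9% of all named genes. Plcg2, the phospholipase of this pathway, lay at -0.77 ± 0.07 and the exchange factor Vav1 at -0.49 ± 0.04. The scaffold proteins Blnk and Lat and the kinase Prkce were detected on no array, and the scaffold Lat2 on 1.

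Of the inhibitors, 14 of 15 were detected (93.3%), beside 54.9% of all named genes. The phosphatase Inpp5d, which docks on Fcgr2b, lay lowest on replicates 1 and 3, at 1.05 on each, and highest on replicate 4, at 1.21, with an SD of 0.08. Replicate 4 was the lowest for Fcgr2b, as it was for 28.3% of all detected genes, and a link between these genes was not tested. The phosphatase Ptpn6 lay at 6.01 ± 0.04, its receptor Sirpa at 5.25 ± 0.07 and the ubiquitin ligase Cbl at 0.69 ± 0.10. Ptpn22 was the inhibitor detected on no array.

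Of the genes on the route of Fcgrt, 5 of 6 were detected (83.3%), beside 54.9% of all named genes. B2m, its partner chain, lay at 5.86, 5.87, 5.77 and 5.60 (5.78 ± 0.12). It was lowest on replicate 4, as were Fcgrt and 28.3% of all detected genes. The recycling GTPases Rab11a and Rab4a lay at 1.69 ± 0.06 and -0.25 ± 0.04, and the Rab11 adaptor Rab11fip1 at -1.49 ± 0.20. Myo5b, a motor of recycling vesicles, was detected on no array.

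**Figure D4:**
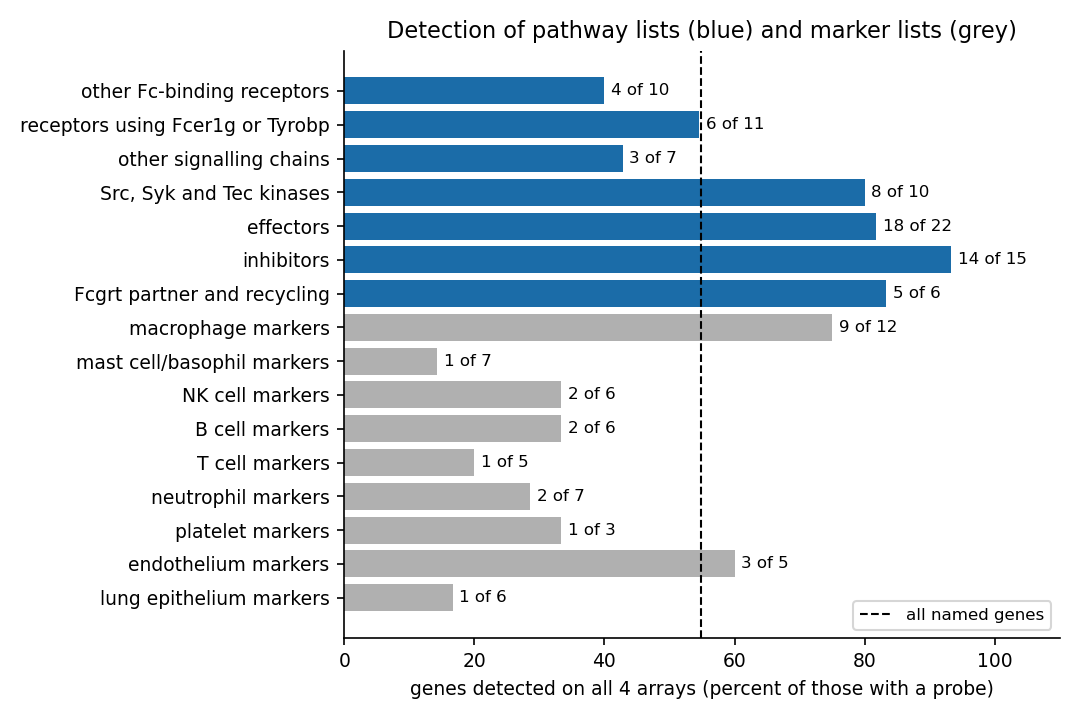
Percent of the genes with a probe that were detected on all 4 arrays, for the pathway lists (blue) and the lists of cell type markers (grey), with the counts at the bar ends and all named genes as the dashed line (54.9%). Inhibitors stand at 14 of 15 and mast cell and basophil markers at 1 of 7.

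The labelled cell type was checked against markers. Of 12 macrophage markers 9 were detected (75%, beside 54.9% of all named genes), and Adgre1, Cd163 and Marco were not. The level of Cd68 was 4.74 ± 0.05 and that of Spi1, the gene of the transcription factor PU.1, -0.43 ± 0.12. That of Csf1r, which binds a macrophage growth factor, was -0.02 ± 0.10 and rests on 1 of its 2 probes. Itgam, an integrin chain of the complement receptor, varied far more, at -1.42, -0.56, -1.59 and -0.03, higher on replicates 2 and 4 than on replicates 1 and 3 (adjusted p = 0.0647 in limma's test). Mrc1 and Siglec1, named after their values were seen, had ranges of 0.62 and 0.55 log2 units. Fcer1g, Tyrobp and the Fcgr genes are also used by other blood cells, whose markers were detected in 1 of 7 cases for mast cells and basophils, 2 of 6 for NK cells, 2 of 6 for B cells, 2 of 7 for neutrophils and 1 of 3 for platelets. T cell markers gave 1 of 5 and lung epithelial markers 1 of 6. The summed level of each list, in multiples of the 75th percentile, adds the linear signals of all its genes with a probe, detected or not. The brightest genes weigh most in it, so a steady sum can hide genes that varied, such as Itgam. For lists with few detected genes, part of the sum is signal near background. Since the lists hold different probes and numbers of genes, the sums do not compare cell types. Over the arrays the sum ran from 160 to 168 for macrophages, 0.107 to 0.137 for mast cells and basophils, 0.635 to 0.832 for NK cells, 0.204 to 0.313 for B cells, 0.484 to 0.667 for neutrophils, 0.081 to 0.117 for platelets, 0.098 to 0.148 for T cells and 0.129 to 0.168 for lung epithelium.

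Some of the listed markers of these cells were detected on no array. Among them were Kit for mast cells, Ncr1 and Klrd1 for NK cells, Ms4a1 for B cells, Cd3e for T cells and Elane for neutrophils. Other markers of the same lists were detected on all arrays, besides Cd79a for B cells and Cd3d for T cells above. Hdc lay at -4.30 ± 0.44, Nkg7 at -0.58 ± 0.17, Gzmb at -4.70 ± 0.17 and Pax5 at -2.22 ± 0.29. Camp lay at -1.06 ± 0.20, Mpo at -4.89 ± 0.30, Gp9 at -3.94 ± 0.11 and Foxj1 at -3.14 ± 0.17. The levels of Gzmb, Camp and Foxj1 each rest on 1 of 2 probes. Endothelial markers gave 3 of 5 (60%), beside 54.9% of all named genes. Vwf lay at 1.23 ± 0.27, Pecam1 at -0.70 ± 0.10 and Cdh5 at -3.88 ± 0.26, and the list summed to 2.59 to 3.47. In such bulk RNA, fewer cells of a type and less RNA per cell cannot be told apart.

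Promoter windows from RefSeq (GRCr8, 250 bases before to 50 after a start) were available for 3 member genes, in 4 windows. They were searched on both strands for GAGGAA, the core of the site of the myeloid transcription factor PU.1, the product of Spi1. The motif stood in 3 of the 4 windows and in 27.6% of all 33469 windows of that length. The match nearest the window's upstream end is shown for each, with GAGGAA or its reverse complement TTCCTC in capitals.
Fcgrt: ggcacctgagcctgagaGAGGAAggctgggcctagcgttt
Fcgr3a: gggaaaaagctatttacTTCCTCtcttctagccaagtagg
Fcgr2a: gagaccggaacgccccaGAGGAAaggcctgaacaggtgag
These 40 bases lie at chr1:104720229-104720268, chr13:85782565-85782604 and chr13:85828806-85828845, with the match 225, 54 and 143 bases before the start. The second Fcgr2a window held no match. A match is a description of the letters and not a measured binding site.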

How the data were processed

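RNA (100 ng, integrity number above 7.5) was labelled with Cy3 and hybridised to Agilent rat arrays in 1 colour, per the labels' protocols, and scanned. Per the submitters' processing notes, the software was Agilent Feature Extraction 11.0.1.1. Per the file headers, the deposited fluorescence intensity values are linear and background-corrected by the software, with no normalization across arrays. The deposited well-above-background and outlier flags were used as given.

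From these, spots flagged as non-uniform or population outliers were left out (402 to 615 of 58717 non-control spots an array). The log2 intensity minus the array's 75th percentile was averaged over a probe's spots, and a gene took its brightest detected probe. Replicates correlated at 0.993 to 0.997 over the 19400 probes detected on every array, and no pair was identical. Probes were named by RefSeq accession, symbol or older symbol, 29353 of 45598 in all. Placeholder symbols (LOC or RGD with a number) were then dropped, which left 26619 probes for the 18830 named genes. The test of spread used limma 3.58.1 (R 4.3.3) and was checked on simulated data. There it called 54.5% of probes given 4 times the SD and 94% of those given 8 times. Smaller increases, such as the 1.97 times its prior of Fcgr2b, were not simulated. The test can therefore miss differences in spread of the size seen in the members. Other steps used Python 3.11.15.

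Members and gene lists were chosen with earlier results of these data known. Of each list, the first 4 genes with a probe are named, and all detected or all undetected ones where 4 or fewer; Rac2, Mrc1, Siglec1 and genes beside the members' probes were named after their values were seen. Some genes that this rule names are not reported here. Probe coordinates (rn4) are those of the files.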

Additional observations from a re-analysis of the deposited data

Results flagged for a closer look

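The members' probes, Fcgr2al1 and the named list and marker genes detected on all arrays, 48 in all, were each examined for an array far from the other 3, by the gap to the nearest array divided by the range (Dixon's test at its limit for 4 arrays). No member stood apart. Another 3 genes did, where chance gives about 1 in 20, or 2.4. Csf1r, the receptor of a macrophage growth factor, had a ratio of 0.902, being lower on replicate 2 (-0.16) than on the others (0.04, 0.03 and 0.02). Fcrlb had a ratio of 0.890, being lower on replicate 4 (-3.03) than on the others (-2.75, -2.74 and -2.72). Gzmb had a ratio of 0.832, being higher on replicate 3 (-4.45) than on the others (-4.75, -4.76 and -4.82). Each of these 3 genes had 2 probes, of which only 1 was detected on all arrays.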

How the results depend on the processing

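All 7 members were detected, and 0 passed the variance test, under every alternative run, with a lowest adjusted p among members of 0.407 (no filter on dim probes) to 0.991 (no robust step). Some of these runs could not come out otherwise. Asking for detection on at least 2 arrays, or leaving out an array, cannot lose a member detected on all 4. The stricter 0.01 cannot add a call. Detected pathway genes numbered 56 to 65. The count of genes past the variance test was 15, and 120 with normexp, 501 without a filter, 0 with spike-in scaling, without the robust step, without the trend or with the stricter 0.01. Leaving out a replicate gave 35 genes without replicate 1, 23 without replicate 2, 0 without replicate 3 and 22 without replicate 4. The cause was not tested. Among recomputed member levels, 59 moved by less than an SD and 11 by more. Much of the 59 was fixed in advance and does not show stability. Spike-in scaling as run keeps each mean, and leaving out 1 array cannot move a mean by an SD. Averaging probes changes nothing for a member with 1 probe. Taking the percentile over detected probes lowered all of them, that of Fcgrt to 0.79, and the mean of both Tyrobp probes gave 1.76. No paired analysis was possible because there is a single group. Signal over background limits the undetected genes, several of which rest on 1 probe.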

Other observations

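Genes that neighbour the members' probes in rn4 were read after the values were known. Apoa2, a lipoprotein gene whose probe lies 4076 bases below that of Fcer1g, was detected on no array. Beside Fcgrt, Rcn3 lay at -2.14 ± 0.12, on a probe 5698 bases away.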
